A study of Homo sapiens with 32 samples.

Results

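The genes examined were 10 genes of epithelial-mesenchymal transition (EMT), a set of named genes chosen with earlier results of these data known. They were 4 cadherins (CDH1, CDH2, CDH6 and CDH16), 5 transcription factors (SNAI1, SNAI2, TWIST1, ZEB1 and ZEB2) and the intermediate filament gene VIM. A peak of m6A, the methylated adenosine of messenger RNA, was assigned to a gene when it overlapped the gene body by at least 1 bp. Of 20033 protein-coding genes in the RefSeq gene table, 13418 had a peak in at least 1 library, and 9 of the 10 EMT genes did. Together these 10 genes held 578 of the 474004 peaks in 16 lists, and 82 of the 99258 regions obtained by merging overlapping peaks of all libraries.

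The peaks came from methylated RNA immunoprecipitation sequencing (MeRIP-seq), in which fragments bound by an m6A antibody (IP) are compared with the unselected RNA (Input). 786-O, a clear cell renal cell carcinoma (ccRCC) line, and RPTEC, an immortalized line of renal proximal tubule epithelium, were each profiled as 4 untreated lines with 2 IP libraries per line. These were the parent with intact SETD2 (WT), the knockout clones SETD2KO-1 and SETD2KO-2, and SETD2KO-1R, in which the SETD2KO-1 clone carries a tagged SETD2 transgene and was again derived as a clone. The transgene is full-length FLAG-tagged SETD2 by the study's text, but the headers of the 786-O SETD2KO-1R lists name a BirA-SETD2 construct, and which tag those libraries carry could not be settled. Knockout and re-expressing lines were thus single clones, and WT together with SETD2KO-1R formed the 4 SETD2-expressing libraries against 4 SETD2KO libraries in each cell line. Nothing states that the libraries of a line came from separate cultures, so p-values measure the spread between libraries, which may be technical. The 786-O and RPTEC lists carry different experiment tags, so cell line and experiment cannot be told apart.

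During EMT, epithelial cells loosen cadherin junctions and take up a motile, spindle-like form. The SNAI, TWIST and ZEB proteins bind DNA and repress epithelial genes such as CDH1, while CDH2 and VIM are commonly used to mark the mesenchymal state. In the kidney, proximal tubule cells are unusual among epithelia in using CDH2 and CDH6, and CDH16 is known as the kidney-specific cadherin. m6A in a transcript is read by proteins that alter its splicing, stability or translation.

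The lists held 25710 to 39670 peaks in 786-O and 19249 to 31207 in RPTEC. They give no read counts, so depth is unknown, and a gene without a peak may be unmethylated, weakly expressed or insufficiently covered. In these bulk cultures, fewer cells with a transcript and less transcript per cell cannot be told apart. The targeted gene SETD2, a histone methyltransferase gene, had peaks in all 16 libraries. In RPTEC there were 6 and 4 peaks in SETD2KO-1, 4 and 5 in SETD2KO-2, 7 and 10 in WT and 11 and 10 in SETD2KO-1R, so the knockout libraries were all lower (exact permutation test, p = 0.0286, adjusted p = 1). In 786-O there were 5 and 10, 5 and 4, 8 and 10, and 7 and 9 in the same order, with overlap. A peak list shows the transcript and not the protein, so it checks the labels only in part. Of 13 proximal tubule markers, LRP2, SLC34A1, SLC22A6, AQP1 and HNF4A had no peak in any library, and neither did the ccRCC marker CA9. Among markers of other cells, no peak was called for COL1A2, COL3A1, DCN, THY1, PECAM1, VWF, KDR, PTPRC or CD3E. Other members of the same lists did have peaks. The fibroblast markers COL1A1, LUM and PDGFRB summed to 1 to 6 peaks per library in RPTEC and 0 to 5 in 786-O, and CDH5 (endothelial) and CD68 (myeloid) had at most 1 peak in any library. None of these passed the adjusted test between cell lines, and their part in the results was not tested. Peaks follow both methylation and transcript level, so these markers give only a partial check of the labelled cell types.

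The 10 genes fell into 3 patterns of calling. CDH2, CDH6, ZEB1 and ZEB2 had at least 1 peak in all 16 libraries, as did 23.1% of protein-coding genes. CDH1 had none in any library, as did 33% of protein-coding genes. The other 5 genes were called in some libraries only, and of these TWIST1 followed the cell line without exception. The plot of peaks by library shows these patterns. Gene bodies ranged from 3832 bp (SNAI2) to 244252 bp (CDH2), so numbers of peaks were compared between libraries and not between genes.

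**Figure D1:**
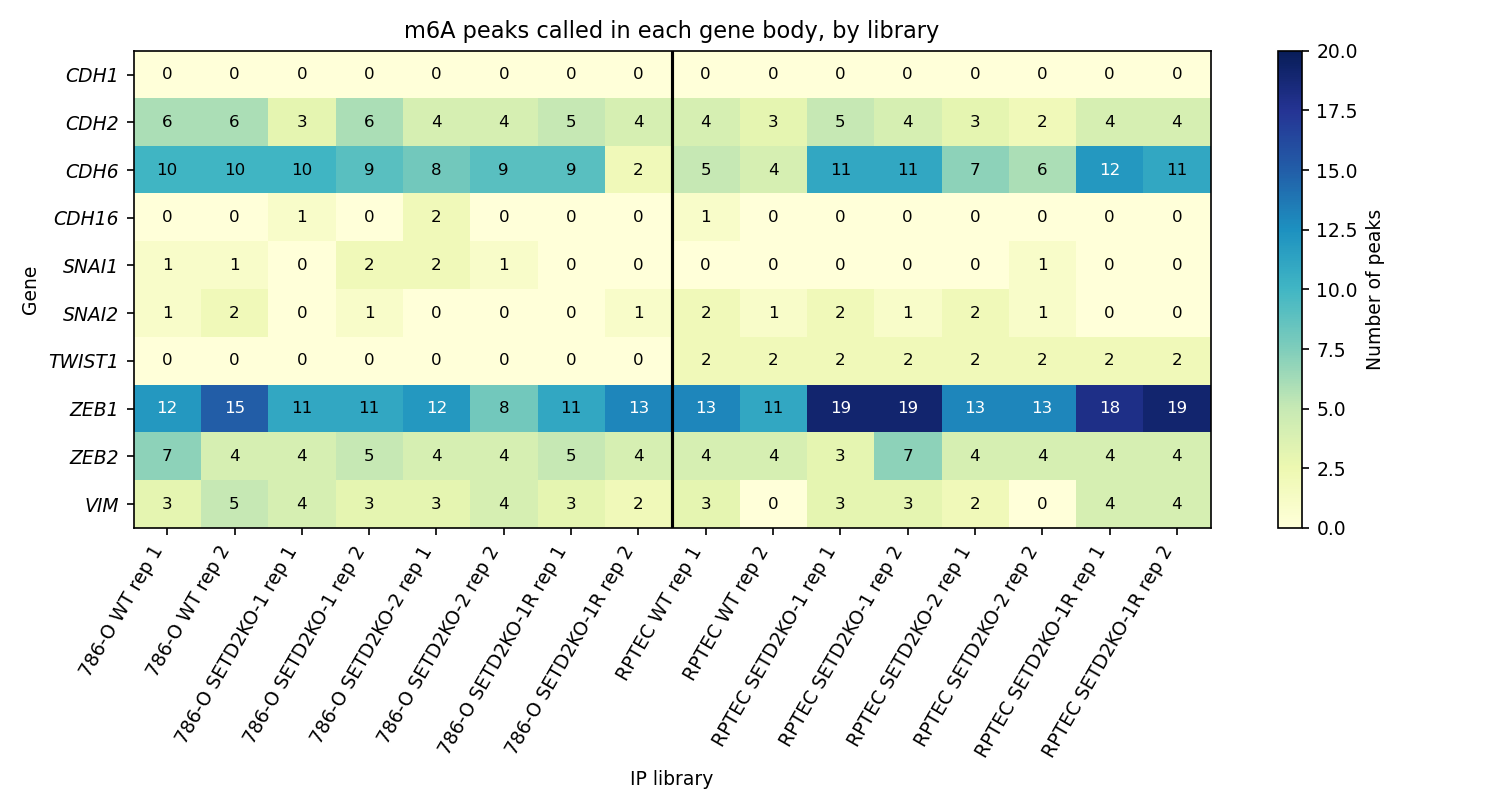
Number of m6A peaks in the body of each EMT gene (rows) in each of 16 IP libraries (columns), with 786-O to the left and RPTEC to the right of the black line. TWIST1 had 2 peaks in every RPTEC library and none in 786-O, and CDH1 had none anywhere.

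CDH1 encodes E-cadherin, the main adhesion molecule of most epithelia. Its body (chr16:68737292-68835537, GRCh38) held no peak in any of the 8 libraries of either cell line. The cell lines therefore cannot be compared at CDH1 with these lists.

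CDH2 encodes N-cadherin. In 786-O its body (chr18:27932879-28177130) had between 3 and 6 peaks per library with a median of 4.5, and in RPTEC between 2 and 5 with a median of 4. The ranges overlapped, and the difference of -1.125 peaks (RPTEC minus 786-O) did not pass the test (exact permutation test, adjusted p = 0.349). The best score percentile, which is the rank of the gene's highest-scoring peak among all peaks of its library with 100 at the top, was 75.6 ± 6.59 in 786-O and 76.2 ± 9.23 in RPTEC (SD, n = 8 each). These are the ranks of the best CDH2 peak, and other CDH2 regions ranked lower, such as one called in 5 libraries with a median percentile of 23.1 in RPTEC and 24.3 in 786-O. Of 12 CDH2 regions, 2 were called in all 16 libraries, and 6 were seen in 786-O alone, 5 of the 12 in a single library. The shares among all regions were 4.25%, 33.7% and 37.2% in the same order. The constant regions were chr18:27952128-27952631, which also lies in the antisense gene CDH2-AS1, and chr18:28084866-28085804. The lists give no strand, so reads of CDH2 and CDH2-AS1 cannot be separated there.

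CDH6 encodes K-cadherin, a cadherin of the developing and adult proximal tubule. Its highest-scoring peak ranked near the top of every list, with a best percentile from 93.2 to 99.7 in 786-O and from 93.6 to 99.5 in RPTEC. The number of peaks ran from 2 to 10 with a median of 9 in 786-O, and from 4 to 12 with a median of 9 in RPTEC. The means were both 8.38 peaks per library, with SD 2.67 in 786-O and 3.20 in RPTEC, and the spread within each cell line was wide. The lowest 786-O value, 2 peaks, came from SETD2KO-1R replicate 2, whose list was also the shortest of that cell line. The body (chr5:31193686-31329146) held 14 regions, of which chr5:31322574-31323943 was called in all 16 libraries. A further region, chr5:31267086-31267562, was called in 15 libraries and had the highest median percentile of the CDH6 regions in each cell line, with 98.8 in 786-O and 97.6 in RPTEC where it was called. Other CDH6 regions ranked low, among them chr5:31249710-31251515, called in 14 libraries with a median percentile of 29.2 in 786-O and 43.0 in RPTEC.

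CDH16 encodes kidney-specific cadherin. It was called in 2 of 8 libraries of 786-O, SETD2KO-1 replicate 1 with 1 peak and SETD2KO-2 replicate 1 with 2, and in 1 of 8 of RPTEC, WT replicate 1. The best percentile was at most 39.0 in any library. These calls were sparse and low in rank, and the difference between cell lines did not pass the test (Fisher's exact test of calls, adjusted p = 1).

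Among the transcription factors, TWIST1 gave the clearest contrast. TWIST1 encodes a basic helix-loop-helix factor that drives mesenchymal programmes in development. Every one of the 8 RPTEC libraries had 2 peaks in its body (chr7:19113047-19117636), and none of the 8 libraries of 786-O had one. The best percentile in RPTEC was 73.9 at the lowest, 84.2 at the median and 92.8 at the highest. This is the rank of the better of its 2 peaks. The other ranked lower, and in RPTEC WT replicate 2 it was not among the 19249 highest-scoring peaks of the library. The groups did not overlap. The difference of 2 peaks had p = 0.0001554, the smallest value this exact permutation test can give, and an adjusted p of 0.00831 over 13418 genes. For calls the adjusted p was 0.0139 by Fisher's exact test. The best percentile, set to 0 where no peak was called, restates those calls for TWIST1 and is no further measure (adjusted p = 0.00719, exact permutation test). TWIST1 was the only 1 of the 9 EMT genes with a peak to pass any of these tests. Over all genes with a peak, 5.36% passed for number of peaks, 1.92% with more in RPTEC and 3.44% with more in 786-O, and 1.87% had numbers of peaks that did not overlap. For the best percentile 6.28% passed, 2.47% higher in RPTEC and 3.81% higher in 786-O. For calls 1.12% passed, and these were the 0.693% called in all RPTEC and no 786-O libraries, as TWIST1 was, and the 0.425% with the reverse. With the 4 lines of a cell line as units the difference was again 2, but the smallest p of that design is 0.0286 and the adjusted p was 0.282.

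TWIST1 peaks merged into 2 regions, chr7:19115582-19116374 and chr7:19116673-19117526. Each was called in 8 of 8 RPTEC and 0 of 8 786-O libraries (Fisher's exact test, p = 0.0001554, adjusted p = 0.0479 over 99258 regions). These were the only EMT regions past the threshold, which 0.324% of all regions passed, 0.152% with more calls in RPTEC. Both regions lie clear of LOC124901597, the non-coding gene that overlaps the end of TWIST1. The regional adjusted p stood close to 0.05, and 4 alternatives moved it past the threshold. Under each of these 4, no region at all passed, against 322 in all with the peaks as deposited, and both TWIST1 regions were still found. It was 0.0564 with lists cut to equal length, 0.0763 with the upper 50% of peaks by score, 0.126 with the replicate number as a block and 0.327 when a peak had to cover 50% of the region.

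The genes whose best percentile most resembled that of TWIST1 over the 16 libraries were TFCP2 (Pearson r = 0.997) and KCNIP3 (r = 0.996). These values describe the likeness only, since the libraries fall into 2 cell lines.

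ZEB1 encodes a zinc finger and homeobox repressor of CDH1. In 786-O its body (chr10:31318417-31529804) had 8 to 15 peaks per library with a median of 11.5, and in RPTEC 11 to 19 with a median of 15.5. The RPTEC libraries were on average higher, at 15.6 ± 3.42 against 11.6 ± 2.00 peaks (SD, n = 8 each), but the ranges overlapped and the difference did not pass the adjusted test (exact permutation test, p = 0.0210, adjusted p = 0.172). By line, the higher values were in SETD2KO-1 (mean of 2 libraries 19) and SETD2KO-1R (18.5) of RPTEC. The means of RPTEC WT (12) and SETD2KO-2 (13) lay within those of the 786-O lines (10 to 13.5), and 786-O WT, at 13.5, was above RPTEC WT. With the mean of each line as unit, ZEB1 had an adjusted p of 0.528 (exact permutation test, p = 0.143). RPTEC lists were shorter, so the same genes were also compared on scales that take list length into account. Per 10000 peaks of the library, ZEB1 had 5.93 ± 1.05 peaks in RPTEC and 3.58 ± 0.737 in 786-O (SD, n = 8 each; exact permutation test, adjusted p = 0.0169). When the 19249 highest-scoring peaks of every library were kept, the means were 11.9 ± 2.36 and 6.13 ± 1.89 peaks (exact permutation test, adjusted p = 0.0178). ZEB1 therefore passed the test on both of these scales and not on the number of peaks as called. On both, every RPTEC line had a higher mean than every 786-O line. The direction between the WT lines turned, with 10 and 10 peaks in RPTEC against 7 and 8 in 786-O for equal lists, and 4.77 and 4.76 against 3.81 and 4.12 per 10000 peaks. The scale also moved the background. Of all genes passing, 35.7% were higher in RPTEC by the number of peaks, 54.4% per 10000 peaks and 65.6% with equal lists. Per 10000 peaks 3.82% of genes tested passed as higher in RPTEC and 3.2% as higher in 786-O, and with equal lists 2.26% and 1.18%. The best percentile of ZEB1 was 84.9 ± 10.4 in RPTEC and 92.1 ± 5.57 in 786-O (SD, n = 8 each), a difference that did not pass (exact permutation test, adjusted p = 0.367). A percentile also depends on how many weaker peaks a list holds, and the lists differed in length between the cell lines.

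**Figure D2:**
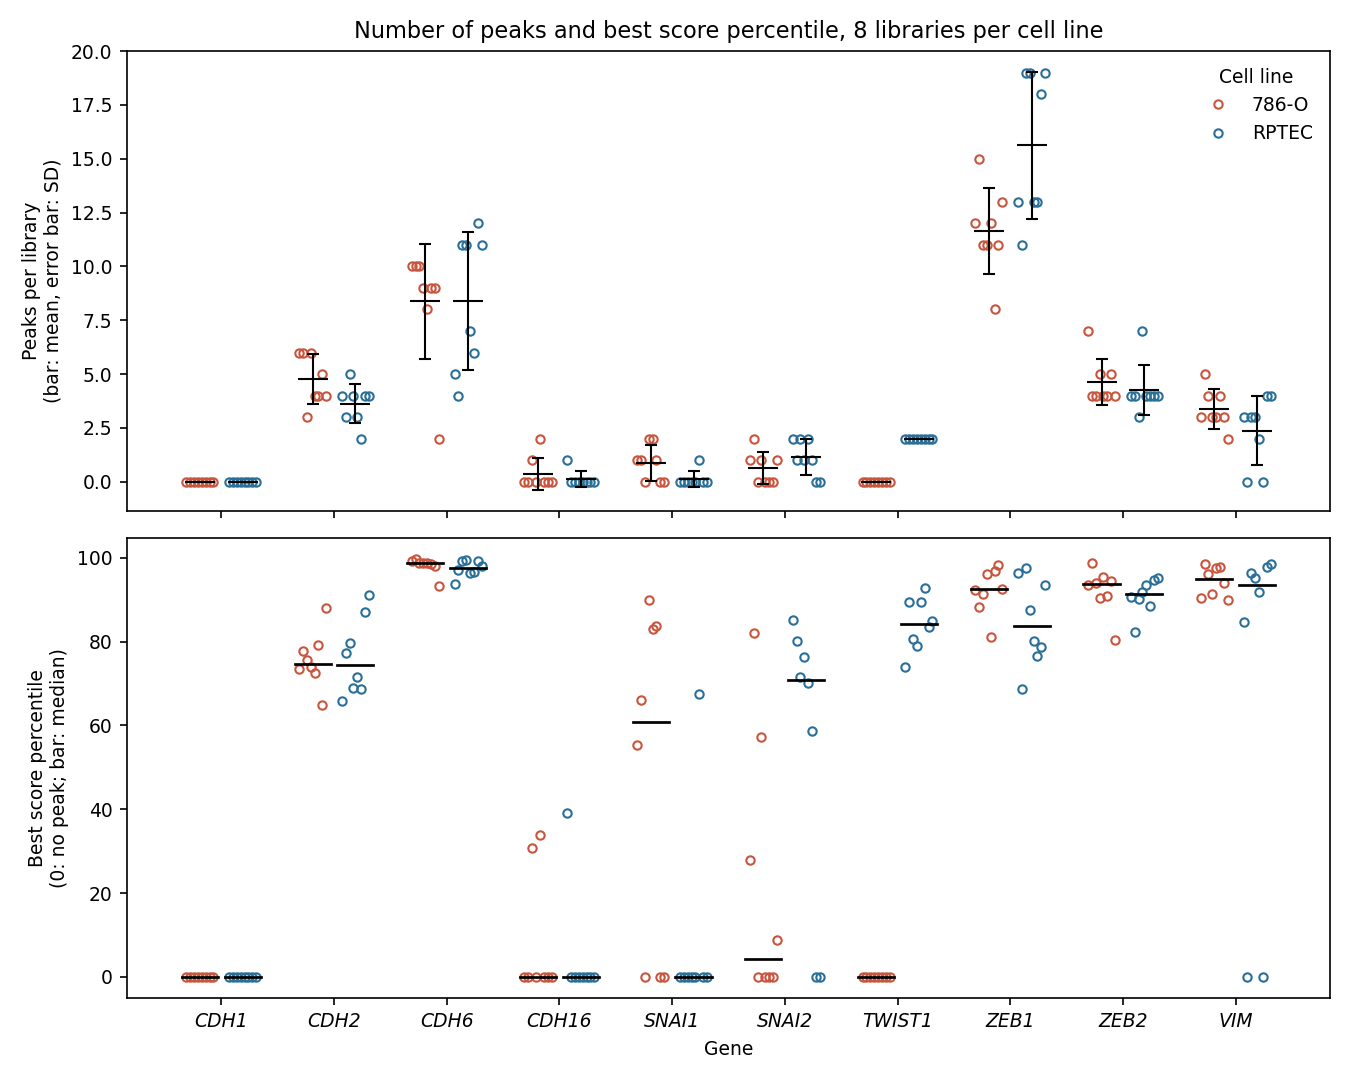
Peaks per library (top; bars, mean with SD) and best score percentile (bottom; bars, median; 0 where no peak was called) of each EMT gene, with 8 open circles per cell line, one for each library. TWIST1 separates completely, ZEB1 is shifted upward in number of peaks in RPTEC with overlap, and the remaining genes overlap in both measures.

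ZEB1 held 32 regions, 8 of them seen in RPTEC alone, as were 21.7% of all regions, and 2 in 786-O alone, as were 33.7%. A total of 3 regions were called in all 16 libraries, chr10:31318038-31320652 at the start of the gene and chr10:31521052-31521897 and chr10:31526431-31527466 at its end, 96.1% and 98.6% of the way along the transcribed strand. The region with the largest imbalance, chr10:31471698-31472485, was called in 7 RPTEC and 2 786-O libraries (Fisher's exact test, p = 0.0406, adjusted p = 1). No ZEB1 region passed the test alone.

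The ZEB1 start region overlaps the antisense gene ZEB1-AS1 and takes in 2 annotated promoter windows (250 bases before to 50 after a transcript start, RefSeq, GRCh38.p14) that were peaked in all 16 libraries. Promoter windows were at hand for CDH2, ZEB1, ZEB2 and VIM, 11 windows in all. They were searched on the gene's strand for GGACT, a common form of the m6A consensus, and 3 windows held it. Among all windows listed, 25.3% of 35116 held it on the gene's strand and 44.2% on either strand, where its reverse complement is AGTCC. The matches are shown with 12 bases on each side, 5′ to 3′ on the strand of the gene and with the motif in capitals. They are shown because a peak overlapped the ZEB1 stretch in almost every library and the others in at most 1. The ZEB1 match is at chr10:31318707-31318735 (plus strand), the CDH2 match at chr18:28177229-28177257 (minus strand) and the VIM match at chr10:17228189-17228217 (plus strand). The motif lies before the transcript start of its window in each case, but the ZEB1 motif is inside the gene body, after an earlier annotated start, while the CDH2 and VIM motifs are outside theirs.
ZEB1: acgcgaggcgtgGGACTgatggtagccct
CDH2: tgcgagtcccgcGGACTccgcggcccgct
VIM: ggacgggggcggGGACTctgcaagaaaaa

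A peak overlapped the ZEB1 stretch by at least 1 bp in 7 RPTEC and 8 786-O libraries. The CDH2 stretch was overlapped in 1 RPTEC library and no 786-O library, and the VIM stretch in none. The ZEB1 stretch also lies in ZEB1-AS1. The lists give no strand, so reads of ZEB1 and ZEB1-AS1 cannot be separated there. A peak is far longer than the motif, so a match describes the sequence at a peak and is not a mapped site.

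ZEB2 encodes the close relative of ZEB1. It was called in every library with 4 to 7 peaks (median 4) in 786-O and 3 to 7 (median 4) in RPTEC. The means, 4.63 ± 1.06 and 4.25 ± 1.16, differed by less than the SD of either group (exact permutation test, adjusted p = 0.954), and the sign of the difference turned when peaks were expressed per 10000 peaks of the library. Its body (chr2:144384081-144520119) held 9 regions, of which chr2:144389329-144390290 and chr2:144398486-144400027 were called in all 16 libraries. ZEB2 lies on the minus strand, and these constant regions lie 95.8% and 88.8% of the way along it. The first of them carried the high ranks of ZEB2, with a median percentile of 93.7 in 786-O and 91.2 in RPTEC.

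SNAI1 and SNAI2 encode the zinc finger repressors Snail and Slug, and both were called in some libraries only. SNAI1 (chr20:49982980-49988886) was called in 5 of 8 786-O libraries with up to 2 peaks and in 1 of 8 RPTEC libraries with 1 peak (Fisher's exact test, adjusted p = 1; exact permutation test of the number of peaks, adjusted p = 0.340). Where called in 786-O, its best percentile lay between 55.4 and 89.9. SNAI2, on chromosome 8, went the other way, with 4 of 8 786-O and 6 of 8 RPTEC libraries called (Fisher's exact test, adjusted p = 1). Where called, its best percentile lay between 8.73 and 81.9 in 786-O and between 58.7 and 85.2 in RPTEC. With libraries without a peak set to 0, the difference in mean best percentile did not pass (exact permutation test, adjusted p = 0.297). For both genes the ranges of the cell lines overlapped.

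VIM encodes vimentin, the intermediate filament of mesenchymal cells, which cultured epithelial lines also make. Its body (chr10:17228241-17237593) was called in all 8 786-O libraries, with 2 to 5 peaks (median 3), and in 6 of 8 RPTEC libraries, with 0 to 4 peaks (median 3). The RPTEC libraries without a VIM peak were WT replicate 2 and SETD2KO-2 replicate 2, which also had the shortest lists of that cell line, 23126 and 19249 peaks. With the 19249 highest-scoring peaks of each library kept, the other RPTEC libraries still had 2 to 4 VIM peaks. The part of list length in this was not tested. Where VIM was called its best percentile was 84.7 or higher. The ranges overlapped and the difference of -1 peak did not pass the test (exact permutation test, adjusted p = 0.575). VIM had 6 regions and none was constant. The first, chr10:17228586-17229749, was called in 8 786-O and 5 RPTEC libraries and overlaps VIM-AS1, and chr10:17233336-17233688 was called in 8 and 4 (Fisher's exact test, p = 0.0769, adjusted p = 1).

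Over the 9 EMT genes with a peak, 82 regions were found and 8 of them, 2 in CDH2, 1 in CDH6, 3 in ZEB1 and 2 in ZEB2, were called in all 16 libraries, against 4.25% of all regions. A further 13 were seen in RPTEC alone, as were 21.7% of all regions, and 16 in 786-O alone, as were 33.7%. A single library gave 19 of the regions, against 37.2% of all regions. The maps of TWIST1, VIM, CDH6 and ZEB1 show that most regions of these genes recur in both cell lines at the same place, TWIST1 excepted.

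**Figure D3:**
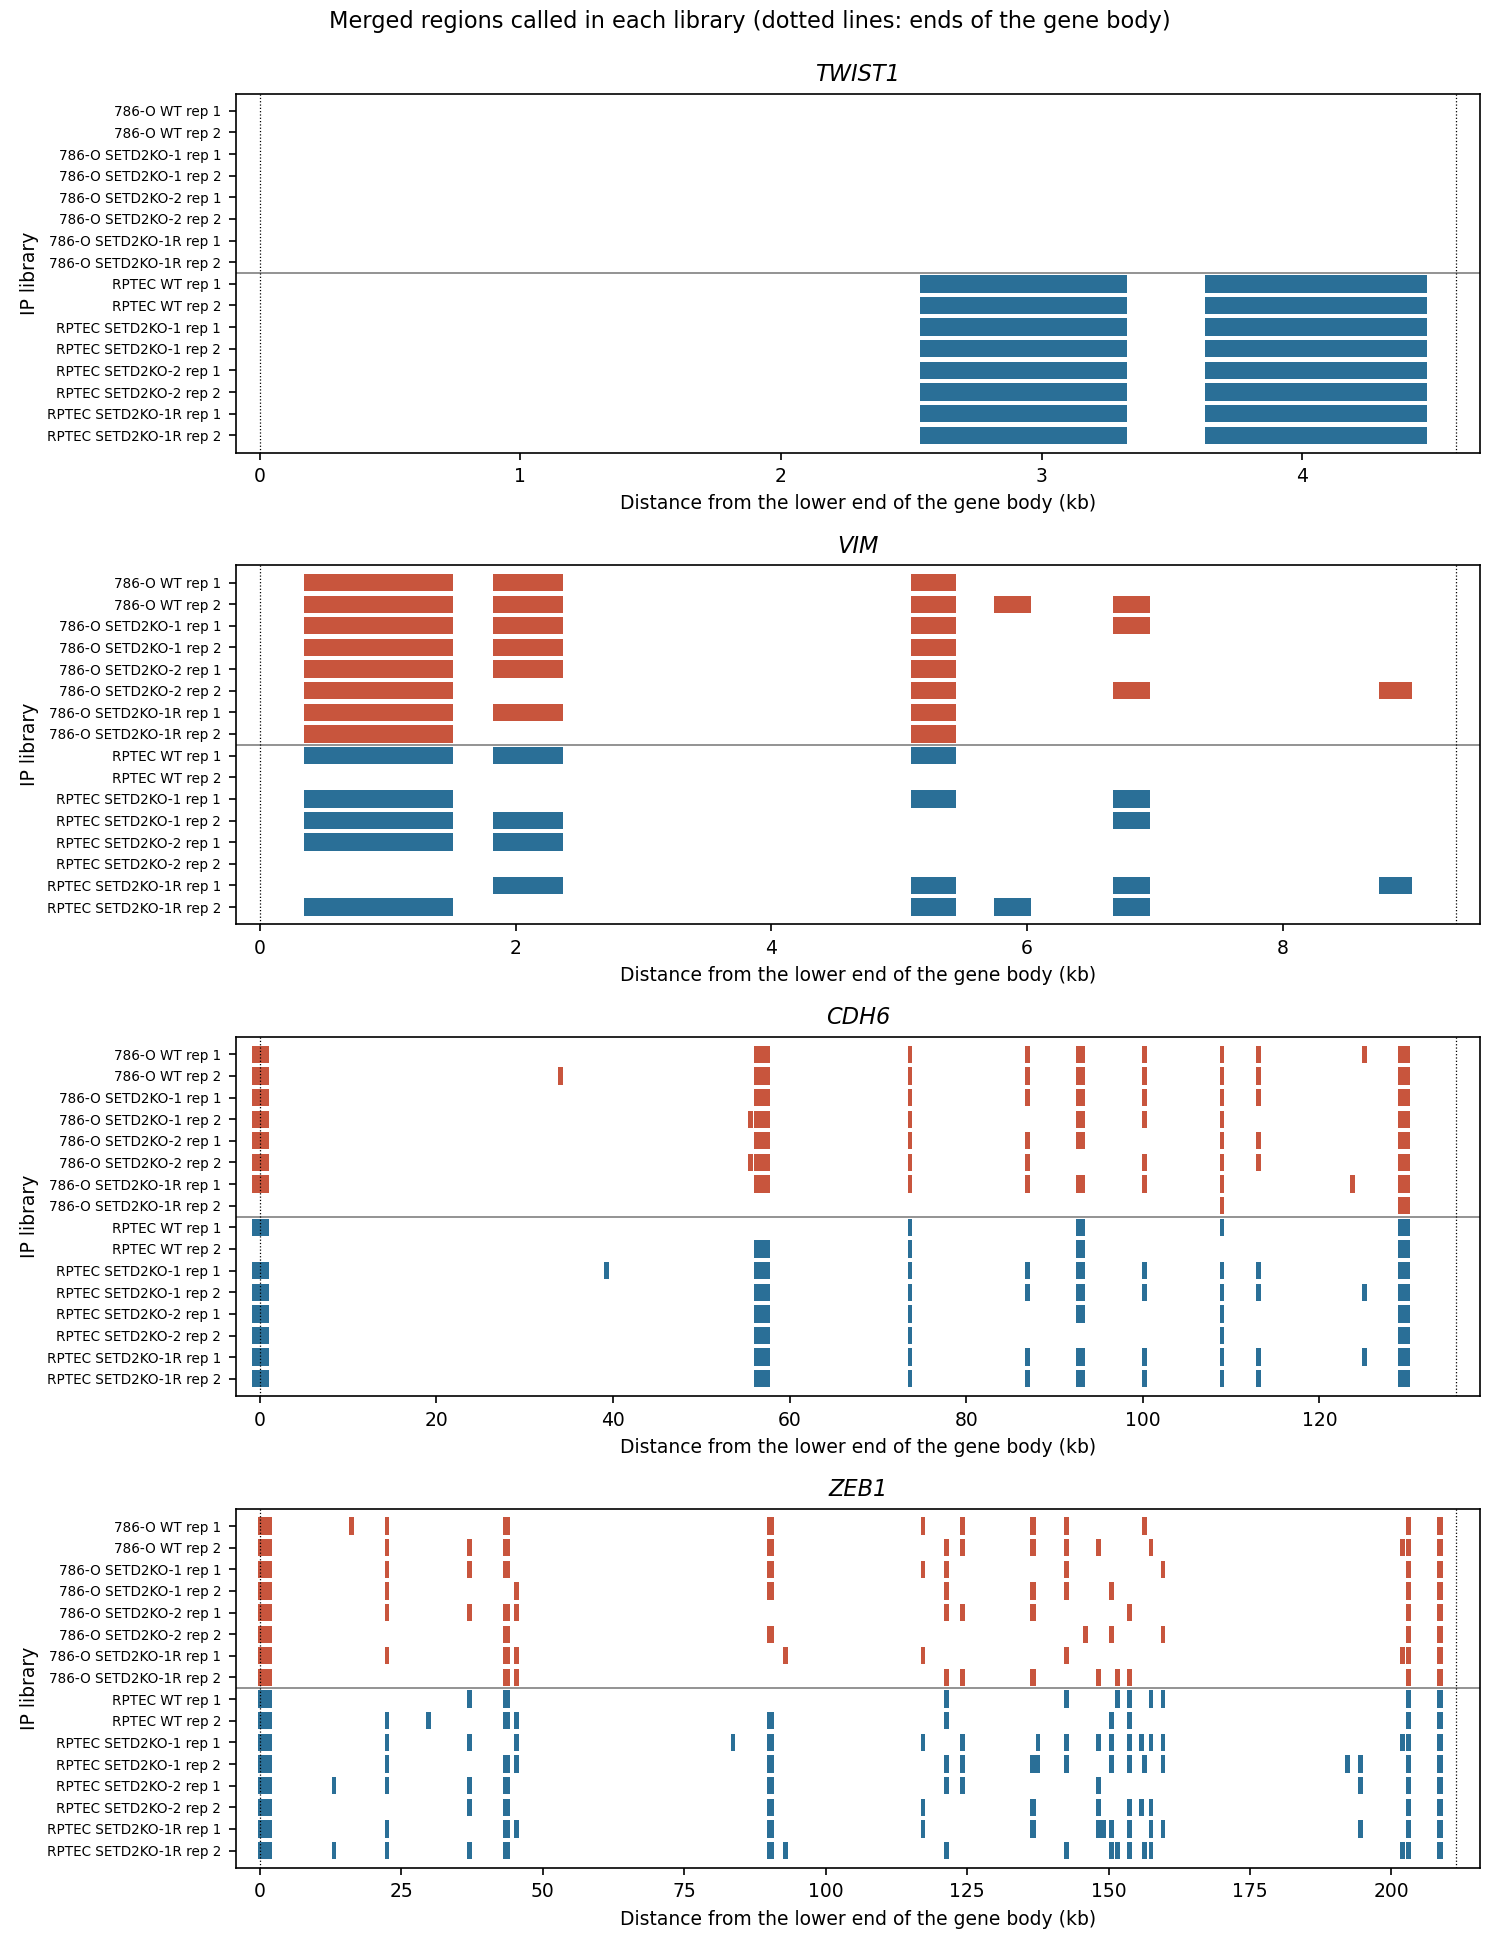
Merged m6A regions of TWIST1, VIM, CDH6 and ZEB1 called in each library (rows; 786-O above the grey line, RPTEC below), against distance in kb from the lower end of the gene body. Blocks have the width of the merged region, not of the peak of that library, and narrow blocks are widened to stay visible; TWIST1 blocks appear in RPTEC rows only.

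The effect of SETD2 was asked for within each cell line, with 4 SETD2KO against 4 SETD2-expressing libraries. No EMT gene differed in number of peaks, best percentile or calls at an unadjusted p under 0.05 in either cell line. For numbers of peaks, 2.42% of 12428 genes in 786-O and 2.42% of 12183 genes in RPTEC did so, for the best percentile 4.67% and 4.08%, and for calls 0.708% and 0.911%. The smallest p of this design is 0.0286, and 0 genes passed after adjustment in either cell line by the exact permutation test. In simulated numbers of peaks the RPTEC test recovered 0% of changed genes after adjustment, so these counts of 0 do not show that SETD2 had no effect. The values below are therefore given without a call.

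In 786-O, ZEB1 had 11, 11, 12 and 8 peaks in SETD2KO and 12, 15, 11 and 13 in SETD2-expressing libraries, in the order SETD2KO-1, SETD2KO-2 and WT, SETD2KO-1R. The groups overlapped, with a difference of -2.25 peaks (SETD2KO minus SETD2-expressing; exact permutation test, p = 0.2). SNAI1 had 0, 2, 2 and 1 peaks in SETD2KO against 1, 1, 0 and 0 (exact permutation test, p = 0.4), and CDH2 had 3, 6, 4 and 4 against 6, 6, 5 and 4 (exact permutation test, p = 0.4). None of these groups separated. CDH16 was called in 2 SETD2KO and no SETD2-expressing libraries of 786-O (Fisher's exact test, p = 0.429). In RPTEC its single call was in WT. These calls are too few to compare the cell lines, and the difference in SETD2KO effect did not pass (exact permutation test, p = 0.214).

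In RPTEC, TWIST1 had 2 peaks in every line, and its best percentile was 85.4 ± 6.69 in SETD2KO and 83.0 ± 6.58 in SETD2-expressing libraries (SD, n = 4 each; exact permutation test, p = 0.629). SNAI2 had 2, 1, 2 and 1 peaks in SETD2KO, 2 and 1 in WT, and 0 and 0 in SETD2KO-1R (exact permutation test, p = 0.4 for SETD2KO against SETD2-expressing). The 2 SETD2-expressing lines thus lay on either side, WT with the knockouts and SETD2KO-1R without a peak. VIM had 3, 3, 2 and 0 peaks in SETD2KO against 3, 0, 4 and 4 (exact permutation test, p = 0.6).

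No region of the EMT genes was called in all 4 SETD2KO and no SETD2-expressing library, or the reverse, in either cell line. There were 69 EMT regions called in 786-O and 66 in RPTEC. Among all regions, 0.478% in 786-O and 0.281% in RPTEC were called in the 4 SETD2KO libraries alone, and 0.15% and 0.213% in the 4 SETD2-expressing libraries alone. The difference between cell lines in the SETD2KO effect on numbers of peaks was tested directly. It passed for 0 of 13418 genes after adjustment (exact permutation test within cell lines; 3.61% at an unadjusted p under 0.05), and among the EMT genes the smallest unadjusted p was 0.110, for SNAI2, whose difference was -0.75 peaks in 786-O and 0.75 in RPTEC.

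In RPTEC, the numbers of CDH6 and ZEB1 peaks separated by clone. The grouping, SETD2KO-1 together with SETD2KO-1R, which was derived from it, against WT and SETD2KO-2, was made after the values were seen and is given without a test. CDH6 had 11 and 11 peaks in SETD2KO-1 and 12 and 11 in SETD2KO-1R, against 5 and 4 in WT and 7 and 6 in SETD2KO-2. ZEB1 had 19 and 19 in SETD2KO-1 and 18 and 19 in SETD2KO-1R, against 13 and 11 in WT and 13 and 13 in SETD2KO-2. For both genes all 4 libraries of the SETD2KO-1 lineage lay above the other 4, which was true of 0.993% of genes with a peak in RPTEC, and no EMT gene showed the reverse, which 0.14% of genes did. In 786-O no EMT gene separated this way, where 0.201% of genes lay above and 0.547% below.

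With list length taken into account, the groups stayed apart for CDH6 and overlapped for ZEB1. Per 10000 peaks of the library, CDH6 had 4.47 and 3.59 in SETD2KO-1, 4.12 and 3.52 in SETD2KO-1R, 1.84 and 1.73 in WT and 2.66 and 3.12 in SETD2KO-2, still without overlap. ZEB1 had 7.72 and 6.21, 6.17 and 6.09, 4.77 and 4.76, and 4.95 and 6.75 in the same order of lines, and SETD2KO-2 replicate 2 then lay among the SETD2KO-1 lineage. With equal lists CDH6 again did not overlap (10, 8, 9 and 10 against 4, 3, 6 and 6 peaks) and ZEB1 did (16, 11, 14 and 12 against 10, 10, 9 and 13).

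**Figure D4:**
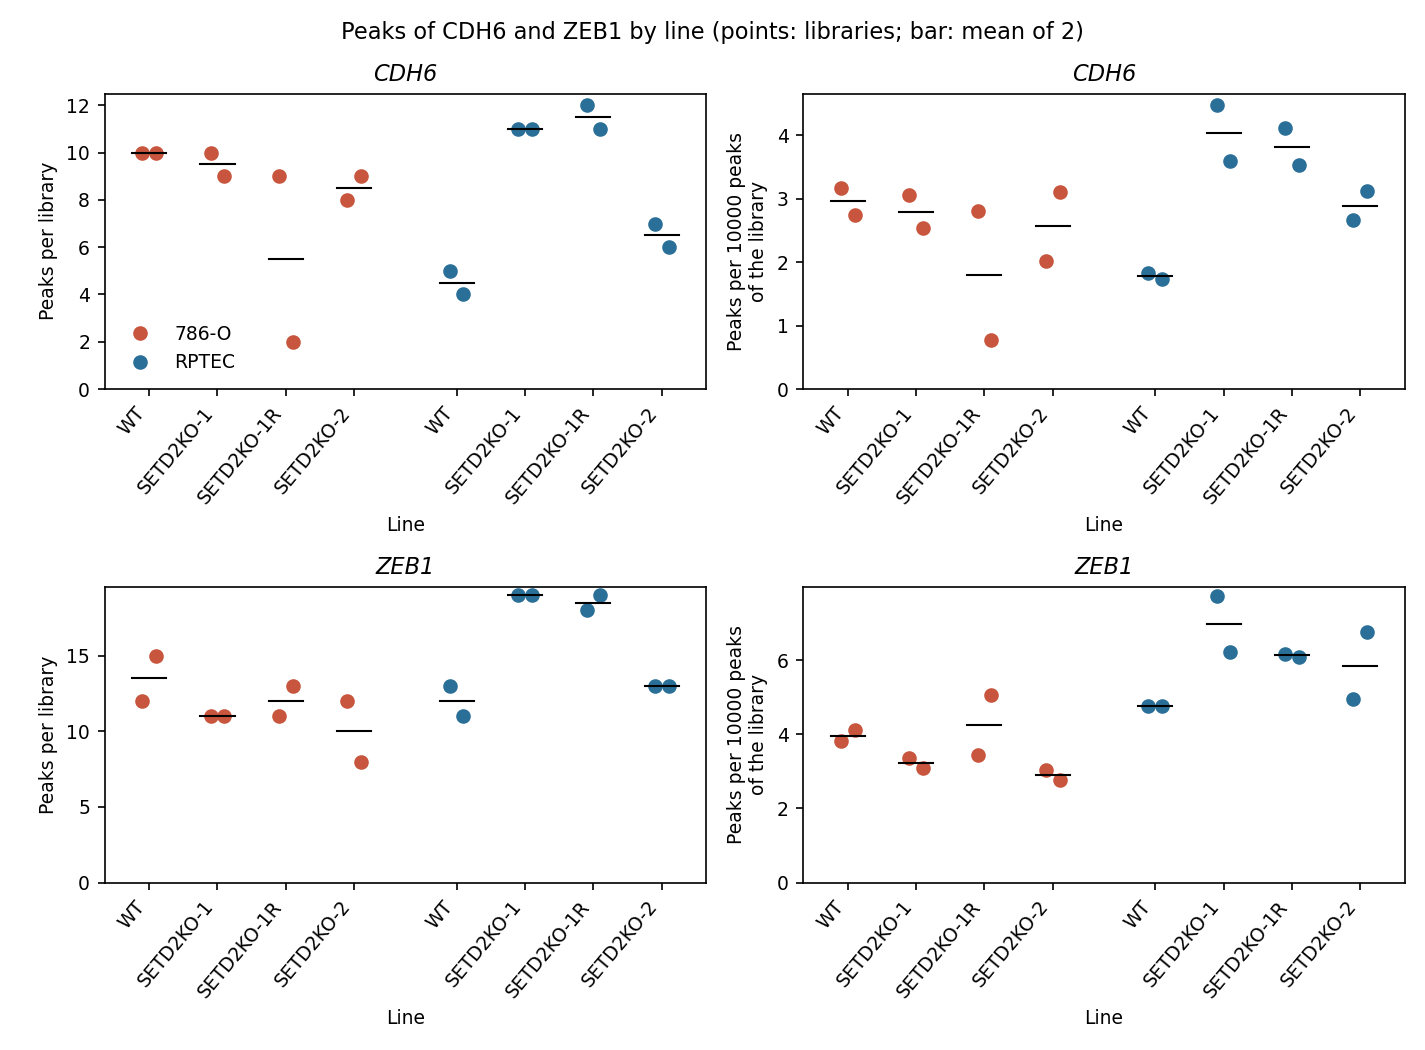
Peaks of CDH6 and ZEB1 in each line, as called (left) and per 10000 peaks of the library (right); points are libraries and bars the mean of 2. In RPTEC the SETD2KO-1 and SETD2KO-1R points of CDH6 lie above WT and SETD2KO-2 on both scales, while those of ZEB1 do so only for peaks as called.

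The places of these peaks are described next, without a test. A total of 4 RPTEC regions were called in both SETD2KO-1 and both SETD2KO-1R libraries and in no WT or SETD2KO-2 library, a pattern held by 0.258% of the 65777 regions called in RPTEC. Of these 4, 3 lay in CDH6, at chr5:31280372-31280826, chr5:31293694-31294023 and chr5:31306610-31307064, and 1 in VIM, at chr10:17234910-17235200. The CDH6 regions hold peaks already counted above, for which the grouping was made, so they restate that count and are no further observation of it. All 4 were also called in some 786-O libraries, the CDH6 regions in 6, 6 and 5 of 8 and the VIM region in 3 of 8. Their ranks varied, with a median percentile in RPTEC of 68.3, 96.4 and 34.5 for the CDH6 regions and 95.7 for VIM. No EMT region in 786-O showed this pattern, which 0.063% of the regions called there did.

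Other genes of the EMT programme were counted from lists of named genes, by the adjusted exact permutation test of the number of peaks between cell lines. Of 16 further EMT factors and cofactors with a peak, TWIST2, the paralogue of TWIST1, was higher in RPTEC with 8.25 ± 3.45 against 0 peaks per library, and SNAI3 was higher in 786-O with 2.63 ± 0.744 against 0.25 ± 0.707 (SD, n = 8 each; adjusted p = 0.00831 and 0.0252 by the exact permutation test). Over all genes with a peak, 1.92% were higher in RPTEC and 3.44% in 786-O. Neither the TWIST2 nor the SNAI3 call held with the upper 50% of peaks by score, nor that of SNAI3 with lists cut to equal length. The other 14 did not pass, and the median difference over the list was -0.44 peaks (RPTEC minus 786-O), against -0.25 over all genes with a peak.

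Of 9 other cadherins and catenins with a peak, 3 were higher in RPTEC and none in 786-O, with a median difference of 0.5. With the mean of each line as unit no gene could be called, since the smallest p of that comparison, 0.0286, had an adjusted p of 0.282, and this holds for every further list. As above, 1.92% of all genes with a peak were higher in RPTEC and 3.44% in 786-O. CDH13, a cadherin anchored to the membrane by a lipid, had 37.9 ± 8.59 peaks per library in RPTEC and 0 in 786-O. CDH4, or R-cadherin, had 28.9 ± 12.5 against 0.5 ± 0.756, and JUP, the junction protein plakoglobin, had 2.38 ± 1.19 against 0 (SD, n = 8 each; adjusted p = 0.00831 for each by the exact permutation test).

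Epithelial and mesenchymal genes both included members with more peaks in RPTEC. Of 19 epithelial genes with a peak, the tight junction gene CLDN1 (1.75 ± 0.886 against 0) and the keratin gene KRT19 (1.88 ± 0.354 against 0.375 ± 0.744) were higher in RPTEC, with adjusted p = 0.0318 and 0.0493 by the exact permutation test (SD, n = 8 each). Neither passed when the upper 50% of peaks by score was used, and leaving out any 1 of 9 libraries reduced the count to 1. The median difference over the list was 0.375 peaks. Of 19 mesenchymal genes with a peak, 4 were higher in RPTEC, where 1.92% of all genes were. The count was 2 with the upper 50% of peaks by score and 2 with peaks of at least 300 bp. The 4 genes were the matrix genes FBN1 (5.38 ± 1.92 against 0.75 ± 0.707) and TNC (3.88 ± 1.46 against 1.13 ± 0.835), the protease gene MMP2 (3 ± 1.31 against 0.125 ± 0.354) and the collagen cross-linking enzyme gene LOX (0.875 ± 0.354 against 0), with adjusted p from 0.00831 to 0.0331 by the exact permutation test. The other 15 did not pass, and the median difference was 0.375. No gene of either list was higher in 786-O. Of 8 proximal tubule markers with a peak, 8 had one in 786-O and 5 in RPTEC. Only the glucose transporter gene SLC5A2 differed, with 2.00 ± 1.07 peaks in 786-O and none in RPTEC (adjusted p = 0.00831, exact permutation test). Over all genes with a peak, 3.44% were higher in 786-O. None of 5 ccRCC markers differed.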

How the data were processed

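The 10 genes and the further gene lists were chosen with earlier results of these data known. The methods and the submitters' processing notes name STAR for alignment, HTSeq for counting and, at a q-value of 0.05, MACS2 for the IP peaks with Input as control. Libraries were scaled by the authors to spiked-in bacterial RNA (E. coli). They deposited 1 peak list per IP library with a score per peak, a whole number of unstated scale, here turned into a percentile within its own list. The 16 Input samples were not analysed here. Per the submitters' processing notes the build is hg38, and gene bodies came from RefSeq (GRCh38.p14), whose table has no exons. The study's read-based differential test needs read counts, which the lists lack, and was not run.

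Groups followed the sample titles. Numbers of peaks and best percentiles were compared by two-sided exact permutation tests (12870 arrangements of 8 against 8, 70 of 4 against 4) and calls by two-sided Fisher's exact test, over every protein-coding gene with a peak or every merged region, with Benjamini-Hochberg adjustment and a threshold of 0.05. All 10 EMT genes were described. From each further list up to 4 genes per direction past the threshold were named by largest difference, and for TWIST1 the 2 genes most alike, with overlapping genes, SETD2 and markers without a peak. Alternatives were the upper 50% by score, equal lists, peaks of at least 300 bp, overlap of at least 50 bp, summits inside the gene, peaks per 10000, lines as units, each knockout clone alone, merging within 100 bp, 50% cover, leave-one-out over libraries, and the replicate number as a block. Steps were tested on simulated numbers of peaks, in which 100 genes were given a 4-fold change and 100 no peak on 1 side. After adjustment the cell line test recovered 78% and 77% of them. The SETD2 test in RPTEC recovered 0% and 0% after adjustment, and 81% and 89% at an unadjusted p under 0.05. SciPy 1.17.1 and NumPy 2.4.6 gave the statistics, pandas 2.3.3 the tables and Matplotlib 3.10.9 the plots, under Python 3.11.15.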

Additional observations from a re-analysis of the deposited data

Results flagged for a closer look

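Among 60 gene and group combinations (10 genes in the 4 or 8 libraries of each compared group), 11 had a library whose number of peaks stood apart from the others by Dixon's test, where chance alone marks about 1 in 20. Numbers of peaks are small whole numbers with many ties, so a single peak more or less can be enough. The widest gap was in CDH6, where 786-O SETD2KO-1R replicate 2 had 2 peaks against a median of 10 in the other SETD2-expressing libraries and 9 in the other 7 of the cell line. ZEB2 had 7 peaks in 786-O WT replicate 1 and 7 in RPTEC SETD2KO-1 replicate 2 against medians of 4, and 5 in 786-O SETD2KO-1 replicate 2 against 4 in the other SETD2KO libraries. CDH2 had 3 peaks in RPTEC WT replicate 2 against 4 in the other SETD2-expressing libraries. The remaining cases were single peaks where every other library had 0. They were 1 peak of CDH16 in RPTEC WT replicate 1 and 1 of SNAI1 in RPTEC SETD2KO-2 replicate 2, each within both the 4 and the 8 libraries, and 1 of SNAI2 in 786-O SETD2KO-1 replicate 2 within the SETD2KO libraries.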

How the results depend on the processing

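TWIST1 had more peaks in RPTEC under all 24 alternatives and passed the threshold in 23 of them (adjusted p from 0.00634 to 0.282 by the exact permutation test); the exception was lines as units, where p was the smallest that design allows, 0.0286. The number of EMT genes past the threshold was 0 with lines as units, for number of peaks and best percentile, and 2 (TWIST1 and ZEB1) both with equal lists and per 10000 peaks. With equal lists the ZEB1 difference was 5.75 peaks and with 10000 peaks as the scale 2.34. The number of EMT regions past the threshold was 0 with the upper 50% by score, equal lists, 50% cover and the replicate block, settings under which no region at all passed, and 2 with each library left out. The count of genes higher in RPTEC was 0 for other EMT factors and 0 for epithelial genes with the upper 50% by score, 2 for mesenchymal genes with the upper 50% and with peaks of at least 300 bp, and 1 for epithelial genes with summits inside the gene. For other EMT factors higher in 786-O it was 0 with the upper 50% and with equal lists and 2 with peaks of at least 300 bp. Leaving out 1 library gave 1 to 2 other EMT factors higher in RPTEC, 1 to 2 higher in 786-O, 1 to 2 epithelial genes higher in RPTEC and 0 to 1 higher in 786-O. It was 2 for other EMT factors higher in RPTEC without RPTEC WT replicate 1 or SETD2KO-1R replicate 2, and higher in 786-O without 786-O SETD2KO-1R replicate 1 or RPTEC WT replicate 2. The epithelial count in RPTEC was 1 without 786-O SETD2KO-1 replicate 2, either SETD2KO-2 library or SETD2KO-1R replicate 2, and without RPTEC WT replicate 2, either SETD2KO-1 library, SETD2KO-2 replicate 1 or SETD2KO-1R replicate 1, and that in 786-O was 1 without RPTEC WT replicate 2. The cause of these changes was not tested.

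None of the differences that changed sign had passed its test. RPTEC minus 786-O was 0.125 for CDH16 with equal lists and 0.188 for ZEB2 per 10000 peaks. SETD2KO minus SETD2-expressing in 786-O was 1 for CDH2 and 0.5 for ZEB1 with the upper 50%, and 0.75 for CDH2 with equal lists. In RPTEC it was 0.5 for CDH2 and -0.25 for ZEB2 with the upper 50%, 1.5 for CDH2 with equal lists, 0.5 for VIM with peaks of at least 300 bp, -0.25 for CDH6 with summits inside the gene and 0.025 for CDH2 per 10000 peaks. With SETD2KO-1 alone it was 0.75 for CDH2 and 0.25 for VIM, and with SETD2KO-2 alone -1.5 for CDH6 and -2.25 for ZEB1. Leaving out 1 library, it ranged in 786-O from -0.667 to 2 for CDH6 and from -0.167 to 0.833 for VIM, and in RPTEC from -0.75 to 0.25 for CDH2, from -0.583 to 2.08 for CDH6, from -0.667 to 2 for ZEB1 and from -0.333 to 1 for ZEB2.

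Deviations of same-numbered libraries of different lines correlated between -0.359 and 0.380, with both signs. These values do not settle whether the shared replicate numbers pair the libraries. With the replicate block 1 EMT gene, TWIST1, passed between cell lines (adjusted p = 0.0195, exact permutation test). By SETD2 status 0 passed in 786-O and 0 in RPTEC. The block leaves 36 arrangements of 4 against 4, too few for any p under 0.05. These counts by SETD2 status were therefore fixed in advance and show nothing about SETD2.

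The lists hold no read counts, so whether a missing peak reflects depth, expression or methylation could not be examined, and number of peaks grows with list length.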
